A study of Mus musculus with 14 samples.

Results

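The genes described here are 46 listed genes of mitochondrial and peroxisomal fatty acid oxidation, among them the dehydrogenases and oxidases that form crotonyl-CoA, and all 46 were found among the 49943 genes of the RefSeq annotation of GRCm38. They are listed by name and function. ChIP-seq of histone H3 lysine 9 crotonylation (H3K9cr) and acetylation (H3K9ac) was carried out on whole mouse kidneys, and each of the 14 libraries was represented by 1 list of peaks. The question was how both marks at these genes differed between control and obstructed kidneys and between WT and ACSS2-/- mice. For each gene and library, the cover is the number of kilobases (kb) within 3 kb of either annotated gene end that lay under a peak.

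The methods name C57BL/6J mice aged 6 to 8 weeks, and the reporting summary gives the same age for the knockout mice. ACSS2-/- denotes a global CRISPR/Cas9 knockout of the acyl-CoA synthetase ACSS2. The background strain of the knockout mice is not stated. In unilateral ureteric obstruction (UUO), the left ureter was ligated and cut. H3K9cr was measured in 2 WT control, 2 ACSS2-/- control, 2 WT UUO and 2 ACSS2-/- UUO kidneys. H3K9ac was measured in 1 WT control, 1 ACSS2-/- control, 2 WT UUO and 2 ACSS2-/- UUO kidneys, so 8 libraries carried H3K9cr and 6 carried H3K9ac. The controls are labelled only with a C, and the time between ligation and collection is not given for these libraries. The labels give a different antibody catalogue number in each of the 4 groups for either mark, in a run of consecutive numbers. The methods name 1 antibody for each mark. Whether the antibody truly differed between groups is thus not known, and if it did, group and antibody cannot be told apart. Nothing in the labels says that same-group libraries came from separate mice, though Y-linked peaks, described below, separate most of these pairs. The p-values measure the spread between these libraries. For H3K9ac each control group has 1 library, so the spread behind its p-values and SE comes from the UUO libraries and not from the controls.

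The lists held 15988 to 45014 peaks, with 27530 to 45014 for H3K9cr and 15988 to 32760 for H3K9ac, and they carry no height or read count. Peaks at 4 Y-linked genes were present in 1 of the 2 libraries of every H3K9cr group, and for H3K9ac in the WT control and in replicate 2 of ACSS2-/- UUO. The 2 libraries of each H3K9cr group thus differed in sex by this measure. The H3K9ac ACSS2-/- UUO pair did as well, so the libraries within these pairs came from different mice. Neither H3K9ac library of WT UUO had such peaks, and that pair is not settled. Acss2 itself had peaks in every library, those of ACSS2-/- mice included (0.760 to 2.82 kb), and this does not check the genotype because the deleted part is not known from the lists.

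Fatty acid oxidation begins with the activation of fatty acids to acyl-CoA and the transfer of long chains into mitochondria by the carnitine shuttle. Each turn of the spiral then uses an acyl-CoA dehydrogenase or, in peroxisomes, an acyl-CoA oxidase, followed by a hydratase, a 3-hydroxyacyl-CoA dehydrogenase and a thiolase. When the chain is butyryl-CoA, the dehydrogenase step yields crotonyl-CoA, the donor for histone crotonylation, and the hydratase removes it. The proximal tubule of the kidney relies on this pathway for its energy.

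The promoters of 4 members are shown because they span the range of what was measured: Acsm1, Acot1 and Fabp3, which had the largest drops in H3K9cr cover with UUO among the members called, and Acads, which forms crotonyl-CoA and kept its peaks. The sequences are from RefSeq (GRCm38.p6), cover 250 bases before to 50 bases after the start and read 5′ to 3′ on the gene's strand, with CpG dinucleotides in capitals. Acsm1 (chr7:119617562-119617861, + strand) had 2 CpG, Acot1 (chr12:84009252-84009551, + strand) had 9, Fabp3 (chr4:130308488-130308787, + strand) had 22 and Acads (chr5:115119297-115119596, - strand) had 17.
Acsm1: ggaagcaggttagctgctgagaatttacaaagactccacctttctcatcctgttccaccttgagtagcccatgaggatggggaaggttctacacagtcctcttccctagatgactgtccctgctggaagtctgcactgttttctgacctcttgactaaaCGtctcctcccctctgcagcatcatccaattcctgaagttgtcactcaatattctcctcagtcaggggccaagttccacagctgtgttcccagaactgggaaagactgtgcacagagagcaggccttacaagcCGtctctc
Acot1: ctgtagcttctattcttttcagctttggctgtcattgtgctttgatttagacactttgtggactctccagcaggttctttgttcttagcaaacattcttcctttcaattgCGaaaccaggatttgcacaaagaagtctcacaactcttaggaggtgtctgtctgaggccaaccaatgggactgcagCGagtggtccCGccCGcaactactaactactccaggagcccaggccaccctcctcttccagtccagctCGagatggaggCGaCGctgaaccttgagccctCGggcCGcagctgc
Fabp3: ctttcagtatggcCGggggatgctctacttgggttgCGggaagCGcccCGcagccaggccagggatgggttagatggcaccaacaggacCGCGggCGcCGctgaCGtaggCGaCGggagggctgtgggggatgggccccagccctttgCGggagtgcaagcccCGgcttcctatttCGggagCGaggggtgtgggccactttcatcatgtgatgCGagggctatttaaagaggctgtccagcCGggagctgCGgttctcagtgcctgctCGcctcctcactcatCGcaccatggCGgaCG
Acads: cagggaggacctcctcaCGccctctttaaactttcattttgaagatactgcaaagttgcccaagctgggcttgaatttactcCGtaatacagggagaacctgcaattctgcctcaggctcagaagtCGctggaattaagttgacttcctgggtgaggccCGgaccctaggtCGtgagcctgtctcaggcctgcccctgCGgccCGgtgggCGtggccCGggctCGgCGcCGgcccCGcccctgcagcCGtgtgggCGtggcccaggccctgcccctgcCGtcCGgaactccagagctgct
Among the 42 members with a promoter in the table, the number of CpG ran from 1 to 45 with a median of 16.5, and over 11819 protein-coding genes the median was 19. Across these 42 genes, which share the same libraries, the number of CpG had a Spearman rho of 0.160 with the UUO minus control difference in H3K9cr cover, and over the 11819 genes rho was -0.0645. For H3K9ac, rho was 0.00947 over 41 members and -0.118 over 11156 genes. The motif AGGTCA, the nuclear receptor half-site, was searched on both strands and lay in 8 of 45 member promoters (17.8%), against 16.3% of all 32851 promoters of this length. Acsm1 was among those with a match, as were Acadm, Acadvl, Acot12, Cd36, Cpt1a, Echs1 and Slc27a2.

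The printed windows show the loss and its limits base by base. In all 4 control libraries of H3K9cr, each of the 4 promoters lay under a peak over its full 300 bases. The Acsm1 promoter had 98 and 0 of its bases under an H3K9cr peak in WT UUO kidneys, and 300 and 300 in ACSS2-/- UUO kidneys. For H3K9ac the same promoter had 0 and 0 bases covered in WT UUO and 300 and 300 in ACSS2-/- UUO kidneys. The Acot1 promoter kept all 300 bases under H3K9cr in every UUO library, while H3K9ac covered 0 and 0 in WT UUO and 0 and 300 in ACSS2-/- UUO kidneys. The Acads promoter was covered in full by H3K9cr in all 8 libraries, and by H3K9ac over 300, 42, 233 and 300 bases in the 4 UUO libraries.

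Obstructed kidneys had less of both marks at the fatty acid oxidation genes than control kidneys. H3K9cr cover fell with UUO at 16 of the 46 members and rose at 0, against 8.28% lower and 2.10% higher among 14801 protein-coding genes (limma, adjusted p under 0.05). At an unadjusted p under 0.05 it was lower at 31 members (21.5% of all genes) and higher at 0. The median difference over the members was -0.949 kb, and over all genes tested it was -0.166 kb. H3K9ac cover fell at 21 of 45 members and rose at 0, against 17.5% lower and 0.0490% higher among 14291 genes, and at an unadjusted p under 0.05 it was lower at 33 (42.5% of all genes) and higher at 0. The 21 include Acsm2 and Acsm3, for which no change is read below. Here the median was -1.15 kb over the members and -0.686 kb over all genes, and H3K9ac was thus lower over the whole gene set as well. Of the 45 members tested for both marks, 11 fell for both, against 3.98% of 13956 genes: Acaa1b, Acadl, Acadm, Acot1, Acsm1, Cpt1b, Cpt2, Decr1, Eci1, Eci2 and Fabp3.

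Centring each library on its own median moved the median over all genes to 0.0428 kb for H3K9cr and 0.0718 kb for H3K9ac, and that over the members to -0.740 and -0.389 kb. After centring, 12 members were still lower and 0 higher for H3K9cr, against 6.74% lower and 5.36% higher of all genes, and 14 were lower and 0 higher for H3K9ac, against 10.6% lower and 5.14% higher. Every UUO library lay below every control library at 18 of 46 members for H3K9cr (13.0% of all genes) and at 34 of 45 for H3K9ac (45.9% of all genes). Leaving out 1 library lowered the H3K9cr count, given here with the share of all genes that were lower. It was 10 without WT control replicate 1 (3.65%) and 9 without WT control replicate 2 (3.84%). It was 7 without ACSS2-/- control replicate 1 (3.67%) and 11 without ACSS2-/- control replicate 2 (7.56%). Without WT UUO replicate 1 it was 6 (3.49%) and without WT UUO replicate 2 it was 5 (2.02%). Without ACSS2-/- UUO replicate 1 it was 6 (3.09%) and without ACSS2-/- UUO replicate 2 it was 7 (2.95%). Hadh, Acadm, Decr1 and Acot1 were lower at an adjusted p under 0.05 whichever of the 8 libraries was left out. The H3K9ac count was 5 without WT UUO replicate 1 (6.18% of all genes) and 4 without WT UUO replicate 2 (3.9%). It was 14 without ACSS2-/- UUO replicate 1 (17.2%) and 24 without ACSS2-/- UUO replicate 2 (31.4%). Leaving out either control left 1 H3K9ac control library. Without the WT control, the median difference was -1.45 kb over the members and -0.818 kb over all genes. Without the ACSS2-/- control it was -0.911 and -0.559 kb.

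**Figure D1:**
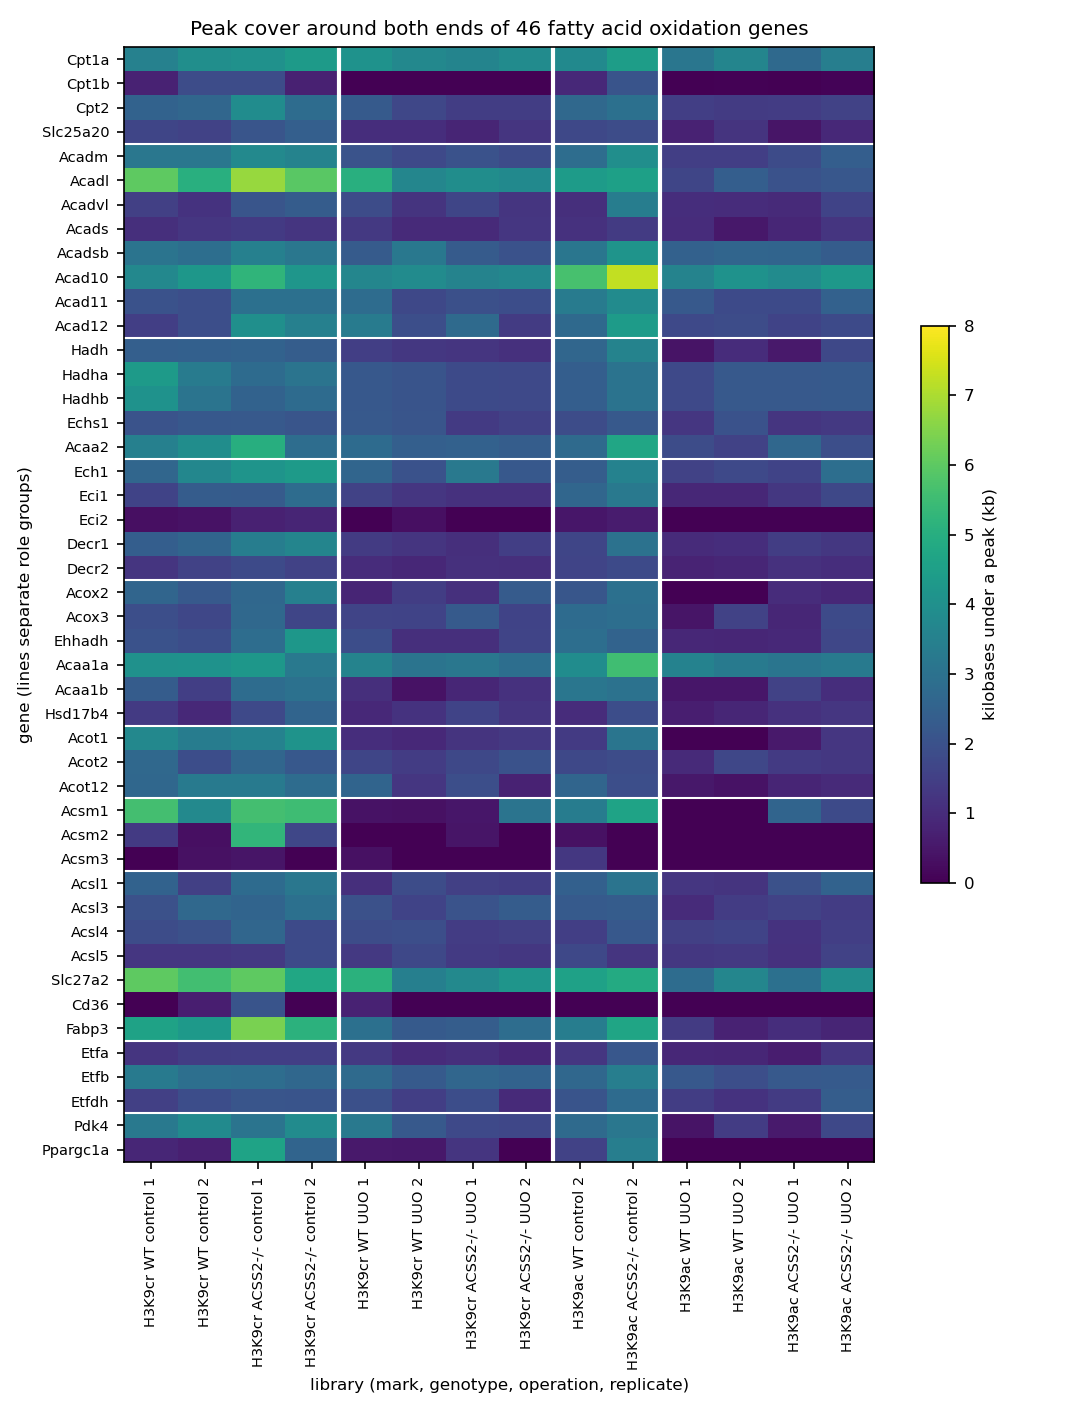
Peak cover in kb (colour, 0 to 8 kb) of each of the 46 genes (rows, in role groups separated by lines) in each of the 14 libraries (columns, with mark, genotype, operation and replicate). Rows of Acsm1, Acot1 and Fabp3 darken from control to UUO columns for both marks, while Cpt1a, Acads and Acsl5 keep much the same shade for H3K9cr.

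In whole kidney, fewer cells of a type and less of a mark per cell cannot be told apart. The summed H3K9cr cover of 14 proximal tubule genes was 37.6 to 61.3 kb in controls and 4.25 to 13.6 kb in UUO kidneys (exact two-sided permutation p = 0.0286, the smallest 4 against 4 can give), and none of the 14 was at 0 throughout. Slc34a1, the phosphate transporter that defines this segment, had 3.25 to 4.88 kb of H3K9cr in controls and 0 to 1.39 kb in UUO. The sum over 11 leukocyte genes went from 5.13 to 8.96 kb in controls to 15.5 to 41.4 kb in UUO kidneys (exact permutation p = 0.0286), and Ptprc was at 0 in all 4 controls. Distal nephron genes, 8 in the list with Calb1 at 0 throughout for H3K9cr, had 11.8 to 21.6 kb in controls and 6.27 to 10.9 kb in UUO. Stroma genes, 8 with Lum at 0, had 0.717 to 3.86 kb in controls and 2.15 to 9.06 kb in UUO, and endothelial genes had 6.46 to 15.3 kb and 4.15 to 8.91 kb.
For H3K9ac, the proximal tubule sum was 38.2 and 45.6 kb in controls and 1.68 to 13.3 kb in UUO kidneys (exact permutation p = 0.0667, the smallest 4 against 2 can give). The leukocyte sum for H3K9ac overlapped between controls (7.27 and 11.9 kb) and UUO (9.77 to 36.6 kb). The H3K9cr sum over 3 adipocyte genes, with Adipoq and Cidec at 0 throughout, was 1.195 to 2.02 kb in controls and 0.656 to 0.973 kb in UUO (exact permutation p = 0.0286). That over 4 heart and skeletal muscle genes, with Myh7 and Actn2 at 0, was 0.970 to 2.165 kb and 0 to 0.790 kb (exact permutation p = 0.0286). The podocyte gene Nphs1 was at 0 in every library too, so absence of a peak does not show absence of the cell. The part of these cell markers in the values of the fatty acid oxidation genes was not tested.

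Around the starts of 42 members, less sequence lay under a peak on both sides in UUO kidneys. From the start to 1 kb downstream, H3K9cr covered 86.3% ± 1.27 of the bases in controls and 73.8% ± 3.35 in UUO kidneys (SD, n = 4 each). From 1 to 3 kb downstream it covered 27.3% ± 3.38 and 11.0% ± 1.76. Upstream, from 3 to 1 kb before the start, the values were 20.5% ± 3.51 and 7.74% ± 2.33, and in none of these stretches did control and UUO libraries overlap. H3K9ac covered 89.1% and 89.9% of the first kb downstream in the controls and 61.9% to 78.0% in UUO. From 1 to 3 kb downstream, H3K9ac went from 28.9% and 44.1% to between 6.34% and 14.6%. Some cover within 3 kb of the start was present at 40 to 41 of the 42 genes in H3K9cr controls and at 38 to 40 in UUO kidneys, so most members kept a shorter peak. No such profile over all genes is given here. Peaks also tended to be shorter over the whole lists. Their H3K9cr medians were 0.887 to 1.017 kb in controls and 0.812 to 0.889 kb in UUO. Within 3 kb of the starts, the median H3K9cr difference was -0.742 kb over the members and -0.1545 kb over all genes. For H3K9ac it was -1.02 and -0.6405 kb.

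**Figure D2:**
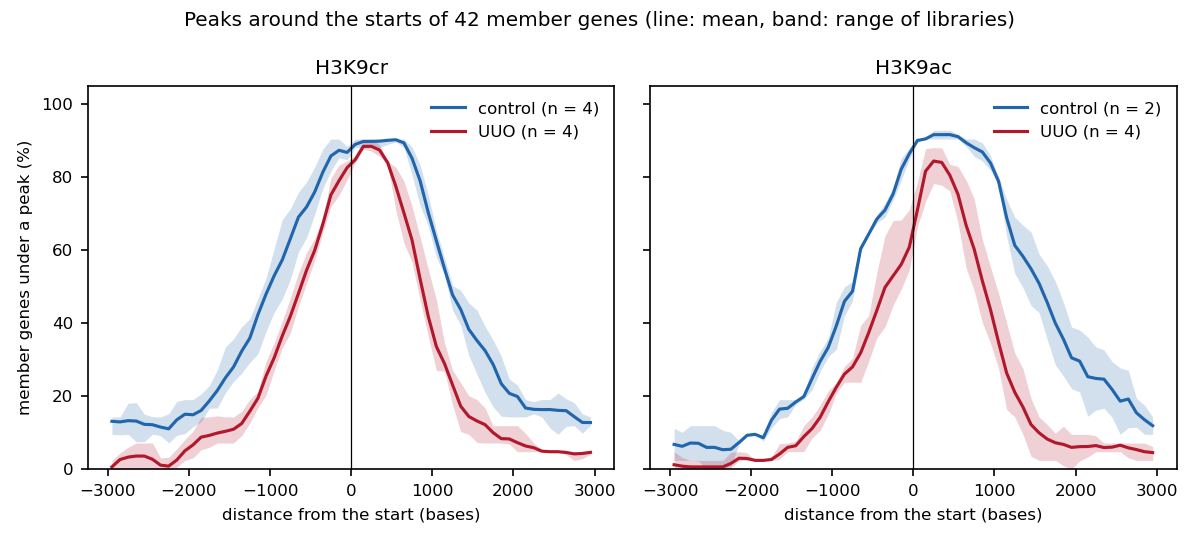
Percent of 42 member genes under a peak (vertical axis) by distance from the start in bases (horizontal axis, negative is upstream), for H3K9cr and H3K9ac. The line is the mean and the band the range over control (blue) and UUO (red) libraries, and the UUO peak is narrower on both flanks.

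Of the 4 carnitine shuttle genes, 3 fell for H3K9cr and 2 for H3K9ac. Cpt1a, the outer membrane palmitoyltransferase that controls entry into mitochondria, differed by -0.162 ± 0.245 kb (SE, adjusted p = 0.702) for H3K9cr and -0.878 ± 0.335 kb (SE, adjusted p = 0.152) for H3K9ac. At Cpt1b, the muscle-type isoform, H3K9cr covered 0.760 and 1.85 kb in WT controls, 1.85 and 0.737 kb in ACSS2-/- controls, 0.00700 and 0 kb in WT UUO and 0 and 0 kb in ACSS2-/- UUO kidneys. It fell by 1.30 ± 0.307 kb (SE, adjusted p = 0.0415). H3K9ac at Cpt1b was 0.930 kb in the WT control, 2.06 kb in the ACSS2-/- control, 0 and 0.0380 kb in WT UUO and 0 and 0.0720 kb in ACSS2-/- UUO kidneys. The cover fell by 1.47 ± 0.0396 kb (SE, adjusted p = 0.00128). This small SE reflects UUO kidneys near 0, and the distance between the 2 controls does not enter it. Both marks at Cpt1b were thus near 0 in every UUO kidney, and its windows also hold an end of Chkb.
Cpt2, the inner membrane enzyme, had H3K9cr of 2.50 and 2.64 kb in WT controls, 3.88 and 2.82 kb in ACSS2-/- controls, 2.27 and 1.72 kb in WT UUO and 1.44 and 1.46 kb in ACSS2-/- UUO kidneys. With UUO it fell by 1.24 ± 0.272 kb (SE, adjusted p = 0.0326). Its H3K9ac was 2.71 kb in the WT control, 2.96 kb in the ACSS2-/- control, 1.48 and 1.38 kb in WT UUO and 1.43 and 1.58 kb in ACSS2-/- UUO kidneys. In UUO kidneys it fell by 1.36 ± 0.155 kb (SE, adjusted p = 0.0289). The groups did not overlap for either mark. Slc25a20, the carnitine-acylcarnitine carrier, had H3K9cr of 1.69 and 1.58 kb in WT controls, 2.11 and 2.43 kb in ACSS2-/- controls, 1.04 and 1.03 kb in WT UUO and 0.823 and 1.23 kb in ACSS2-/- UUO kidneys. This mark fell by 0.919 ± 0.156 kb (SE, adjusted p = 0.0150). The H3K9ac difference there was -0.960 ± 0.249 kb (SE, adjusted p = 0.0892).

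Among 8 acyl-CoA dehydrogenases, H3K9cr fell at 2 and H3K9ac at 5. Acadm, the medium-chain enzyme (chr3:153922353-153944643), had H3K9cr of 3.16 and 3.18 kb in WT controls, 3.77 and 3.59 kb in ACSS2-/- controls, 2.06 and 1.76 kb in WT UUO and 2.03 and 1.82 kb in ACSS2-/- UUO kidneys. The mark fell by 1.51 ± 0.182 kb (SE, adjusted p = 0.00592) with UUO. Its H3K9ac was 2.87 kb in the WT control, 3.95 kb in the ACSS2-/- control, 1.496 and 1.49 kb in WT UUO and 1.83 and 2.40 kb in ACSS2-/- UUO kidneys. It fell by 1.60 ± 0.244 kb (SE, adjusted p = 0.0440). Every UUO kidney was below every control for both marks, and no other protein-coding gene ends in these windows. Acadl, the long-chain enzyme, carried broad H3K9cr of 6.0 and 5.04 kb in WT controls, 6.75 and 5.94 kb in ACSS2-/- controls, 5.04 and 3.67 kb in WT UUO and 3.92 and 3.80 kb in ACSS2-/- UUO kidneys. The cover fell by 1.83 ± 0.426 kb (SE, adjusted p = 0.0395). H3K9ac at Acadl was 4.39 kb in the WT control, 4.56 kb in the ACSS2-/- control, 1.68 and 2.40 kb in WT UUO and 2.01 and 2.16 kb in ACSS2-/- UUO kidneys. With UUO it fell by 2.41 ± 0.295 kb (SE, adjusted p = 0.0326). WT UUO replicate 1 came closest to the controls for H3K9cr, and at Acadl the H3K9cr call was lost whichever of the 8 libraries was left out and the H3K9ac call whichever of the 6 was.
Acads, the short-chain dehydrogenase that makes crotonyl-CoA from butyryl-CoA, had H3K9cr of 1.07 and 1.26 kb in WT controls, 1.36 and 1.24 kb in ACSS2-/- controls, 1.33 and 0.960 kb in WT UUO and 0.967 and 1.26 kb in ACSS2-/- UUO kidneys. The UUO minus control difference was -0.104 ± 0.148 kb (SE, adjusted p = 0.680), and the libraries of both operations overlapped. H3K9ac at Acads was 1.13 kb in the WT control, 1.40 kb in the ACSS2-/- control, 1.01 and 0.526 kb in WT UUO and 0.853 and 1.23 kb in ACSS2-/- UUO kidneys, with a difference of -0.359 ± 0.229 kb (SE, adjusted p = 0.292). An end of Rpl37rt lies in the same windows.
Acadsb, the short/branched-chain enzyme, had H3K9ac of 3.15 kb in the WT control, 4.13 kb in the ACSS2-/- control, 2.48 and 2.60 kb in WT UUO and 2.57 and 2.33 kb in ACSS2-/- UUO kidneys. In UUO kidneys it fell by 1.15 ± 0.170 kb (SE, adjusted p = 0.0423). Its H3K9cr was 3.07 and 2.88 kb in WT controls, 3.48 and 3.18 kb in ACSS2-/- controls, 2.30 and 3.21 kb in WT UUO and 2.31 and 2.004 kb in ACSS2-/- UUO kidneys, a difference of -0.699 ± 0.256 kb (SE, adjusted p = 0.133), with WT UUO replicate 2 among the controls. Acad10 and Acad12 lie 2.09 kb apart and share part of their windows. H3K9ac at Acad10 was 5.67 kb in the WT control, 7.26 kb in the ACSS2-/- control, 3.57 and 4.08 kb in WT UUO and 3.87 and 4.26 kb in ACSS2-/- UUO kidneys. This mark fell by 2.52 ± 0.295 kb (SE, adjusted p = 0.0303). At Acad12 it was 2.73 kb in the WT control, 4.39 kb in the ACSS2-/- control, 1.78 and 1.87 kb in WT UUO and 1.60 and 1.79 kb in ACSS2-/- UUO kidneys. The mark fell by 1.80 ± 0.158 kb (SE, adjusted p = 0.0176) with UUO.
H3K9cr did not pass the test at this pair. At Acad10 it was 3.74 and 4.23 kb in WT controls, 5.23 and 4.20 kb in ACSS2-/- controls, 3.69 and 3.86 kb in WT UUO and 3.58 and 3.69 kb in ACSS2-/- UUO kidneys, a difference of -0.643 ± 0.305 kb (SE, adjusted p = 0.226). At Acad12 it was 1.48 and 1.93 kb in WT controls, 3.996 and 3.497 kb in ACSS2-/- controls, 3.33 and 1.91 kb in WT UUO and 2.78 and 1.38 kb in ACSS2-/- UUO kidneys, a difference of -0.375 ± 0.424 kb (SE, adjusted p = 0.608). Both ACSS2-/- controls were above all other libraries at Acad12, and the WT controls overlapped with UUO kidneys. Acadvl, the very-long-chain enzyme, and Acad11 passed for neither mark, with H3K9cr differences of -0.281 ± 0.207 kb (SE, adjusted p = 0.429) and -0.359 ± 0.256 kb (SE, adjusted p = 0.412).

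Of 5 genes of the mitochondrial hydratase, 3-hydroxyacyl-CoA dehydrogenase and thiolase steps, 3 fell for H3K9cr and 0 for H3K9ac, where 2 had an unadjusted p under 0.05 (limma). Hadh, the short-chain 3-hydroxyacyl-CoA dehydrogenase (chr3:131233419-131272101), had H3K9cr of 2.41 and 2.45 kb in WT controls, 2.52 and 2.35 kb in ACSS2-/- controls, 1.48 and 1.30 kb in WT UUO and 1.24 and 1.10 kb in ACSS2-/- UUO kidneys. It fell by 1.15 ± 0.144 kb (SE, adjusted p = 0.00645). The 4 controls lay between 2.35 and 2.52 kb, and all 4 UUO kidneys were below them. H3K9ac at Hadh was 2.65 kb in the WT control, 3.57 kb in the ACSS2-/- control, 0.415 and 1.01 kb in WT UUO and 0.543 and 1.74 kb in ACSS2-/- UUO kidneys, a difference of -2.18 ± 0.491 kb (SE, adjusted p = 0.0746), with a wide spread among UUO kidneys.
Hadha and Hadhb, the subunits of the trifunctional protein, are 0.273 kb apart, so they share the same peaks and are not independent. H3K9cr at Hadha was 4.36 and 3.34 kb in WT controls, 2.79 and 3.08 kb in ACSS2-/- controls, 2.21 and 2.09 kb in WT UUO and 1.78 and 1.78 kb in ACSS2-/- UUO kidneys. The cover fell by 1.43 ± 0.259 kb (SE, adjusted p = 0.0177). At Hadhb it was 4.09 and 3.06 kb in WT controls, 2.52 and 2.80 kb in ACSS2-/- controls, 2.21 and 2.09 kb in WT UUO and 1.78 and 1.78 kb in ACSS2-/- UUO kidneys. With UUO it fell by 1.15 ± 0.256 kb (SE, adjusted p = 0.0335). Their H3K9ac was the same in every library, 2.40 kb in the WT control, 3.04 kb in the ACSS2-/- control, 1.78 and 2.22 kb in WT UUO and 2.23 and 2.28 kb in ACSS2-/- UUO kidneys, with a difference of -0.597 ± 0.210 kb (SE, adjusted p = 0.136).
Echs1, the short-chain enoyl-CoA hydratase that takes up crotonyl-CoA, had H3K9cr of 2.03 and 2.22 kb in WT controls, 2.24 and 2.11 kb in ACSS2-/- controls, 2.23 and 2.10 kb in WT UUO and 1.35 and 1.54 kb in ACSS2-/- UUO kidneys, a difference of -0.343 ± 0.150 kb (SE, adjusted p = 0.194). WT UUO kidneys were level with the controls and ACSS2-/- UUO kidneys were lower. H3K9ac at Echs1 was 1.86 kb in the WT control, 2.23 kb in the ACSS2-/- control, 1.28 and 2.01 kb in WT UUO and 1.23 and 1.32 kb in ACSS2-/- UUO kidneys, a difference of -0.586 ± 0.296 kb (SE, adjusted p = 0.220). Acaa2, the mitochondrial thiolase, had differences of -1.30 ± 0.452 kb (SE, adjusted p = 0.118) for H3K9cr and -1.75 ± 0.311 kb (SE, adjusted p = 0.0550) for H3K9ac.

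Of the 5 auxiliary enzymes that handle double bonds, 3 fell for H3K9cr and 4 for H3K9ac. Decr1, the mitochondrial dienoyl-CoA reductase, had H3K9cr of 2.38 and 2.60 kb in WT controls, 3.38 and 3.64 kb in ACSS2-/- controls, 1.40 and 1.24 kb in WT UUO and 1.08 and 1.47 kb in ACSS2-/- UUO kidneys. In UUO kidneys it fell by 1.70 ± 0.177 kb (SE, adjusted p = 0.00460). Its H3K9ac was 1.68 kb in the WT control, 3.02 kb in the ACSS2-/- control, 0.998 and 1.06 kb in WT UUO and 1.47 and 1.30 kb in ACSS2-/- UUO kidneys. This mark fell by 1.14 ± 0.149 kb (SE, adjusted p = 0.0362). Both groups of UUO kidneys were below the controls for either mark. Decr2, its peroxisomal counterpart, had H3K9ac of 1.64 kb in the WT control, 1.79 kb in the ACSS2-/- control, 0.796 and 0.848 kb in WT UUO and 1.15 and 1.05 kb in ACSS2-/- UUO kidneys, and it fell by 0.755 ± 0.112 kb (SE, adjusted p = 0.0422), a difference that was 0.00225 kb once libraries were centred on their medians. H3K9cr at Decr2 was 1.22 and 1.58 kb in WT controls, 1.80 and 1.57 kb in ACSS2-/- controls, 1.02 and 0.898 kb in WT UUO and 1.10 and 1.08 kb in ACSS2-/- UUO kidneys, a difference of -0.518 ± 0.141 kb (SE, adjusted p = 0.0621), and the groups did not overlap.
Eci1, the mitochondrial enoyl-CoA isomerase, had H3K9cr of 1.62 and 2.31 kb in WT controls, 2.29 and 2.81 kb in ACSS2-/- controls, 1.59 and 1.25 kb in WT UUO and 1.15 and 1.14 kb in ACSS2-/- UUO kidneys. The mark fell by 0.978 ± 0.217 kb (SE, adjusted p = 0.0334) with UUO. Its H3K9ac was 2.63 kb in the WT control, 3.24 kb in the ACSS2-/- control, 0.878 and 0.876 kb in WT UUO and 1.30 and 1.74 kb in ACSS2-/- UUO kidneys. It fell by 1.74 ± 0.211 kb (SE, adjusted p = 0.0322). Eci2, the peroxisomal isomerase, had little of either mark. H3K9cr there was 0.337 and 0.386 kb in WT controls, 0.744 and 0.841 kb in ACSS2-/- controls, 0 and 0.327 kb in WT UUO and 0 and 0 kb in ACSS2-/- UUO kidneys. The cover fell by 0.495 ± 0.114 kb (SE, adjusted p = 0.0377). H3K9ac was 0.486 kb in the WT control, 0.611 kb in the ACSS2-/- control, 0 and 0 kb in WT UUO and 0 and 0 kb in ACSS2-/- UUO kidneys, and it fell by 0.548 ± 0.0111 kb (SE, adjusted p = 0.000929), with the sign turned (0.209 kb) under median centring. Ech1, the dienoyl-CoA isomerase, had differences of -1.19 ± 0.354 kb (SE, adjusted p = 0.0789) and -0.987 ± 0.479 kb (SE, adjusted p = 0.208) for H3K9cr and H3K9ac.

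Of the 6 peroxisomal genes, 1 fell for H3K9cr and 3 for H3K9ac. Acox2, the branched-chain oxidase of bile acid and branched fatty acid breakdown, had H3K9ac of 2.14 kb in the WT control, 2.94 kb in the ACSS2-/- control, 0 and 0 kb in WT UUO and 1.003 and 0.893 kb in ACSS2-/- UUO kidneys. With UUO it fell by 2.06 ± 0.106 kb (SE, adjusted p = 0.00463). It was at 0 in both WT UUO kidneys and near 1 kb in both ACSS2-/- UUO kidneys. H3K9cr at Acox2 was 2.60 and 2.23 kb in WT controls, 2.67 and 3.496 kb in ACSS2-/- controls, 0.833 and 1.47 kb in WT UUO and 1.11 and 2.31 kb in ACSS2-/- UUO kidneys, a difference of -1.32 ± 0.337 kb (SE, adjusted p = 0.0512). Acox3, another branched-chain oxidase, had H3K9cr of 1.93 and 1.72 kb in WT controls, 2.69 and 1.69 kb in ACSS2-/- controls, 1.63 and 1.61 kb in WT UUO and 2.25 and 1.62 kb in ACSS2-/- UUO kidneys, a difference of -0.228 ± 0.263 kb (SE, adjusted p = 0.614), and H3K9ac of 2.80 kb in the WT control, 2.88 kb in the ACSS2-/- control, 0.440 and 1.58 kb in WT UUO and 0.854 and 1.80 kb in ACSS2-/- UUO kidneys, a difference of -1.67 ± 0.540 kb (SE, adjusted p = 0.121).
The thiolase paralogues Acaa1a and Acaa1b lie 184 kb apart on chromosome 9, and reads from near-identical stretches could be split between them. H3K9cr at Acaa1b was 2.34 and 1.496 kb in WT controls, 2.84 and 2.99 kb in ACSS2-/- controls, 1.08 and 0.385 kb in WT UUO and 0.871 and 1.14 kb in ACSS2-/- UUO kidneys. In UUO kidneys it fell by 1.54 ± 0.246 kb (SE, adjusted p = 0.0123). H3K9ac at Acaa1b was 3.15 kb in the WT control, 3.02 kb in the ACSS2-/- control, 0.482 and 0.476 kb in WT UUO and 1.58 and 1.04 kb in ACSS2-/- UUO kidneys. This mark fell by 2.19 ± 0.234 kb (SE, adjusted p = 0.0257). At Acaa1b the UUO kidneys held 36.1% of the control H3K9cr cover and 29.0% of the H3K9ac cover.
At Acaa1a, H3K9cr was 4.05 and 4.08 kb in WT controls, 4.24 and 3.23 kb in ACSS2-/- controls, 3.59 and 3.07 kb in WT UUO and 3.19 and 2.89 kb in ACSS2-/- UUO kidneys, a difference of -0.716 ± 0.295 kb (SE, adjusted p = 0.172). H3K9ac at Acaa1a was 3.89 kb in the WT control, 5.55 kb in the ACSS2-/- control, 3.55 and 3.29 kb in WT UUO and 3.11 and 3.29 kb in ACSS2-/- UUO kidneys. The mark fell by 1.41 ± 0.190 kb (SE, adjusted p = 0.0376) with UUO. Acaa1a thus kept 81.7% and 70.2% of its control cover. Ehhadh, the bifunctional enzyme of the inducible peroxisomal route, had H3K9cr of 2.03 and 1.89 kb in WT controls, 2.86 and 4.22 kb in ACSS2-/- controls, 1.90 and 1.08 kb in WT UUO and 1.08 and 1.64 kb in ACSS2-/- UUO kidneys, a difference of -1.32 ± 0.347 kb (SE, adjusted p = 0.0556). It passed within ACSS2-/- mice, where H3K9cr fell by 2.18 ± 0.490 kb (SE, adjusted p = 0.0448). H3K9ac at Ehhadh differed by -1.61 ± 0.306 kb (SE, adjusted p = 0.0605). Hsd17b4, the bifunctional enzyme for branched chains, had -0.418 ± 0.222 kb (SE, adjusted p = 0.274) and -0.464 ± 0.125 kb (SE, adjusted p = 0.0945).

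Among the 3 thioesterases, which split acyl-CoA to free fatty acid, 1 fell for H3K9cr and 2 for H3K9ac. Acot1, the cytosolic enzyme, had H3K9cr of 3.74 and 3.35 kb in WT controls, 3.56 and 4.10 kb in ACSS2-/- controls, 1.04 and 0.918 kb in WT UUO and 1.21 and 1.33 kb in ACSS2-/- UUO kidneys, and it fell by 2.56 ± 0.201 kb (SE, adjusted p = 0.00275), to 30.5% of the control mean. H3K9ac at Acot1 was 1.37 kb in the WT control, 3.11 kb in the ACSS2-/- control, 0 and 0 kb in WT UUO and 0.557 and 1.27 kb in ACSS2-/- UUO kidneys. It fell by 1.79 ± 0.264 kb (SE, adjusted p = 0.0423). The H3K9cr values within each operation were close together and far from the other operation. Acot2, the mitochondrial paralogue 15.6 kb away, had H3K9cr of 2.71 and 1.89 kb in WT controls, 2.64 and 2.21 kb in ACSS2-/- controls, 1.66 and 1.42 kb in WT UUO and 1.73 and 2.03 kb in ACSS2-/- UUO kidneys, a difference of -0.654 ± 0.235 kb (SE, adjusted p = 0.127). Its H3K9ac was 1.74 kb in the WT control, 1.86 kb in the ACSS2-/- control, 0.955 and 1.72 kb in WT UUO and 1.35 and 1.30 kb in ACSS2-/- UUO kidneys, a difference of -0.464 ± 0.299 kb (SE, adjusted p = 0.296). Reads from stretches that the paralogues share are uncertain, and the difference between Acot1 and Acot2 was not tested. Acot12, an acetyl-CoA hydrolase, had H3K9ac of 2.60 kb in the WT control, 1.92 kb in the ACSS2-/- control, 0.503 and 0.388 kb in WT UUO and 0.822 and 0.947 kb in ACSS2-/- UUO kidneys, and it fell by 1.60 ± 0.119 kb (SE, adjusted p = 0.0122), and its H3K9cr difference was -1.38 ± 0.390 kb (SE, adjusted p = 0.0695).

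The 3 medium-chain acyl-CoA synthetases lie in a cluster on chromosome 7, with Acsm2 17.1 kb and Acsm3 98.4 kb from Acsm1. Acsm1 (chr7:119617757-119662515), which also activates butyrate, had the largest H3K9cr difference of the 46 members. Its H3K9cr was 5.62 and 3.78 kb in WT controls, 5.60 and 5.52 kb in ACSS2-/- controls, 0.405 and 0.364 kb in WT UUO and 0.494 and 3.09 kb in ACSS2-/- UUO kidneys, and it fell by 4.04 ± 0.623 kb (SE, adjusted p = 0.0110), to 21.2% of the control mean. H3K9ac at Acsm1 was 3.35 kb in the WT control, 4.65 kb in the ACSS2-/- control, 0 and 0 kb in WT UUO and 2.59 and 1.79 kb in ACSS2-/- UUO kidneys. The cover fell by 2.90 ± 0.315 kb (SE, adjusted p = 0.0266). ACSS2-/- UUO replicate 2 kept much more H3K9cr than the other 3 UUO kidneys.
Acsm2 had H3K9cr of 1.37 and 0.324 kb in WT controls, 5.25 and 1.72 kb in ACSS2-/- controls, 0 and 0 kb in WT UUO and 0.461 and 0 kb in ACSS2-/- UUO kidneys, a difference of -2.05 ± 0.703 kb (SE, adjusted p = 0.114) with ACSS2-/- control replicate 1 far above the other libraries. H3K9ac at Acsm2 was 0.358 kb in the WT control, 0 kb in the ACSS2-/- control, 0 and 0 kb in WT UUO and 0 and 0 kb in ACSS2-/- UUO kidneys. Acsm3 had H3K9ac of 1.30 kb in the WT control, 0 kb in the ACSS2-/- control, 0 and 0 kb in WT UUO and 0 and 0 kb in ACSS2-/- UUO kidneys and H3K9cr of 0 and 0.345 kb in WT controls, 0.457 and 0 kb in ACSS2-/- controls, 0.365 and 0 kb in WT UUO and 0 and 0 kb in ACSS2-/- UUO kidneys. For H3K9ac both genes passed the test, with adjusted p = 0.00316 at Acsm2 and 0.000926 at Acsm3. The spread in that fit comes from UUO kidneys, all 4 at 0, since each control group holds 1 library. In a fit in which the control libraries enter the spread, chosen after seeing the data, their adjusted p was 0.352 and 0.124. Their sign also turned under median centring (0.579 and 0.107 kb), and no change is read for these genes. Eci2 and Ppargc1a were also at 0 in all 4 UUO kidneys, and in that fit their adjusted p was 0.0411 and 0.0132. The same fit called 25 of 45 members lower for H3K9ac (20.5% of all genes) and 12 of 46 for H3K9cr (5.82% of all genes).

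Among 7 genes of long-chain activation and uptake, Fabp3 fell for both marks and the other 6 for neither. Fabp3, the heart-type fatty acid binding protein, had H3K9cr of 4.61 and 4.34 kb in WT controls, 6.38 and 5.15 kb in ACSS2-/- controls, 2.95 and 2.27 kb in WT UUO and 2.37 and 2.86 kb in ACSS2-/- UUO kidneys. With UUO it fell by 2.51 ± 0.352 kb (SE, adjusted p = 0.00836). Its H3K9ac was 3.38 kb in the WT control, 4.70 kb in the ACSS2-/- control, 1.40 and 0.778 kb in WT UUO and 1.06 and 0.822 kb in ACSS2-/- UUO kidneys. In UUO kidneys it fell by 3.02 ± 0.275 kb (SE, adjusted p = 0.0192). The 4 UUO kidneys were below the controls for both marks, and an end of Zcchc17 lies in the windows. The long-chain synthetases had H3K9cr differences of -1.03 ± 0.287 kb (SE, adjusted p = 0.0662) at Acsl1, -0.558 ± 0.229 kb (SE, adjusted p = 0.170) at Acsl3, -0.382 ± 0.207 kb (SE, adjusted p = 0.285) at Acsl4 and 0.0132 ± 0.168 kb (SE, adjusted p = 0.970) at Acsl5. Slc27a2, a fatty acid transporter and very-long-chain synthetase of the tubule, had among the broadest cover of all members, with H3K9cr of 6.0 and 5.58 kb in WT controls, 6.0 and 4.75 kb in ACSS2-/- controls, 5.11 and 3.46 kb in WT UUO and 3.77 and 4.18 kb in ACSS2-/- UUO kidneys and a difference of -1.45 ± 0.469 kb (SE, adjusted p = 0.0987). Cd36, the fatty acid translocase, had no H3K9ac peak in any library and was not tested for that mark. H3K9cr at Cd36 was 0 and 0.663 kb in WT controls, 2.07 and 0 kb in ACSS2-/- controls, 0.781 and 0 kb in WT UUO and 0 and 0 kb in ACSS2-/- UUO kidneys, a difference of -0.487 ± 0.442 kb (SE, adjusted p = 0.525).

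The 3 electron transfer genes, which pass electrons from the dehydrogenases to ubiquinone, passed for neither mark (limma), with 1 for H3K9cr and 2 for H3K9ac at an unadjusted p under 0.05. Their H3K9cr differences were -0.342 ± 0.140 kb (SE, adjusted p = 0.170) at Etfa, -0.385 ± 0.210 kb (SE, adjusted p = 0.288) at Etfb and -0.315 ± 0.247 kb (SE, adjusted p = 0.458) at Etfdh. The H3K9ac differences ran from -0.888 to -0.811 kb. Of the 2 regulators, Pdk4, the pyruvate dehydrogenase kinase that favours fat over glucose, had H3K9cr of 3.23 and 3.83 kb in WT controls, 3.08 and 3.86 kb in ACSS2-/- controls, 3.22 and 2.24 kb in WT UUO and 1.76 and 1.69 kb in ACSS2-/- UUO kidneys. This mark fell by 1.27 ± 0.312 kb (SE, adjusted p = 0.0459). WT UUO replicate 1 was level with the lower controls, and the call at Pdk4 was lost when any of the 8 libraries was left out. H3K9ac at Pdk4 was 2.76 kb in the WT control, 3.17 kb in the ACSS2-/- control, 0.434 and 1.42 kb in WT UUO and 0.571 and 1.72 kb in ACSS2-/- UUO kidneys, a difference of -1.93 ± 0.551 kb (SE, adjusted p = 0.102).
Ppargc1a, the coactivator of mitochondrial genes, had H3K9ac of 1.59 kb in the WT control, 3.44 kb in the ACSS2-/- control, 0 and 0 kb in WT UUO and 0 and 0 kb in ACSS2-/- UUO kidneys. The mark fell by 2.51 ± 0.0570 kb (SE, adjusted p = 0.00101) with UUO. Its H3K9cr was 0.852 and 0.706 kb in WT controls, 4.64 and 2.56 kb in ACSS2-/- controls, 0.548 and 0.505 kb in WT UUO and 1.23 and 0 kb in ACSS2-/- UUO kidneys, a difference of -1.62 ± 0.466 kb (SE, adjusted p = 0.0735). Eci2 and Ppargc1a were the members with H3K9ac in both controls and in 0 of the 4 UUO kidneys. No share over all genes is given for this pattern, and the H3K9ac lists were shorter in UUO (15988 to 24571 peaks) than in controls (25585 and 32760). No member had H3K9cr in all 4 controls and none in UUO, and no member had cover in UUO kidneys only. Cover was present in all 14 libraries at 37 of the 46 members.

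**Figure D3:**
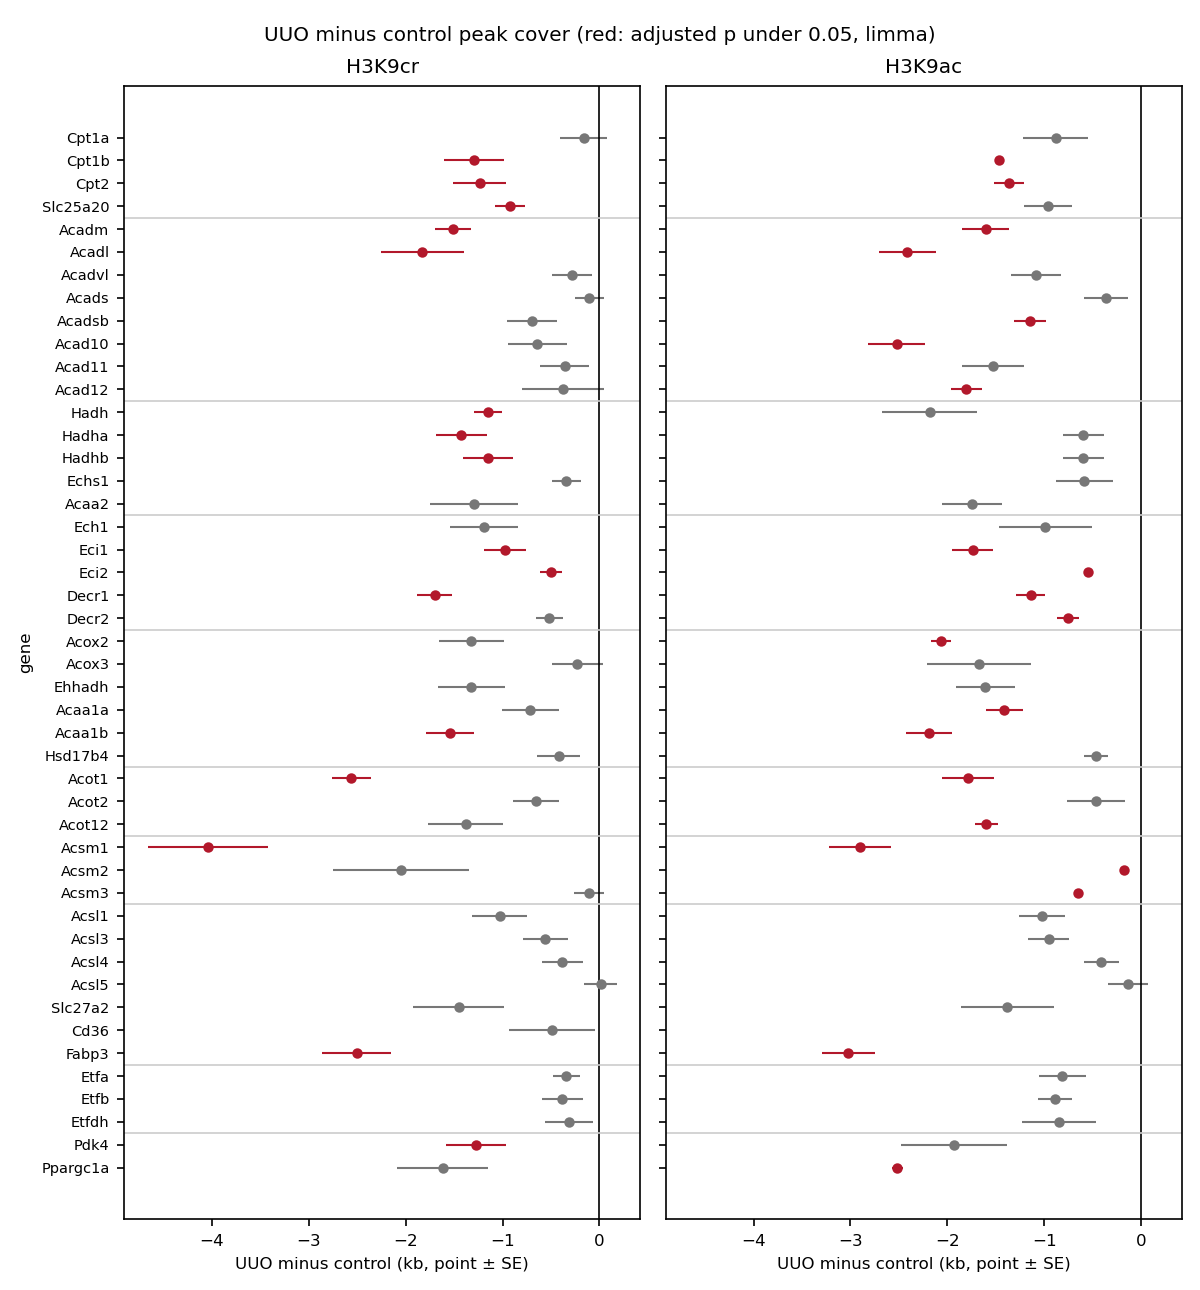
UUO minus control difference in cover (kb, point with SE) for each member, H3K9cr on the left and H3K9ac on the right, with members in role groups and red for an adjusted p under 0.05. Only Acsl5 has a point above 0, for H3K9cr (0.0132 kb), and Cd36 has no H3K9ac point.

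An end of another protein-coding gene lay in the windows of 23 of the 46 members, where a peak can belong to either gene. With those set aside, 10 of the 22 remaining members tested fell for H3K9ac, against 17.5% of genes without such a neighbour. For H3K9cr, 10 of 23 fell, against 8.14%: Acadl, Acadm, Acot1, Acsm1, Cpt2, Decr1, Eci2, Hadh, Pdk4 and Slc25a20. The 46 genes together held 67 to 79 H3K9cr peaks in controls and 50 to 54 in UUO kidneys, and 56 and 65 against 42 to 53 H3K9ac peaks. The whole lists also tended to be shorter in UUO, with 32945 to 45014 against 27530 to 36734 peaks for H3K9cr. For H3K9ac they held 25585 and 32760 against 15988 to 24571 peaks.

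Between the marks, within the 4 groups, H3K9cr cover exceeded H3K9ac cover at 3 of 46 members (adjusted p under 0.05, limma), against 3.63% of 15136 genes. These were Acadl by 1.81 ± 0.301 kb (SE, adjusted p = 0.00747), Fabp3 by 1.39 ± 0.243 kb (SE, adjusted p = 0.00964) and Acot1 by 0.979 ± 0.239 kb (SE, adjusted p = 0.0347). Their values per library are given above. The fits across marks took the 14 libraries as independent, although the paper states that the same samples were used for both marks. By label, Y-linked peaks of the marks agreed in replicate 2 of both control groups and of WT UUO. They differed in replicate 1 of WT UUO and in both replicates of ACSS2-/- UUO, so these labels do not match samples between marks. The lists of H3K9cr were the longer ones in each group. With an equal number of longest peaks in every library, Acadl was still higher (adjusted p = 0.0357) and Fabp3 and Acot1 did not pass (adjusted p = 0.0525 and 0.558), and the members' median went from 0.185 to -0.0125 kb. The UUO effect on H3K9cr minus that on H3K9ac passed at 0 of 46 members (limma), against 0.205% lower and 4.39% higher of all genes. At an unadjusted p under 0.05 it was lower at 2, Acot1 and Decr1 (1.20% of all genes), and higher at 6 (24.6% of all genes). The 3 largest differences of the effects were at Acad10 (1.88 ± 0.436 kb (SE, adjusted p = 0.0534)), Acsm2 (-1.87 ± 1.06 kb (SE, adjusted p = 0.297)) and Acox3 (1.45 ± 0.564 kb (SE, adjusted p = 0.163)).

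No member passed the test for ACSS2-/- against WT. In control kidneys, H3K9cr passed at 0 of 46 members, with the smallest adjusted p at 0.188 (limma). At an unadjusted p under 0.05 it was higher in ACSS2-/- at 13 members (12.2% of all genes) and lower at 2, Hadha and Hadhb (0.561% of all genes). The median difference was 0.424 kb over the members and 0.228 kb over all genes. The largest were at Ppargc1a, 2.82 ± 0.659 kb (SE, unadjusted p = 0.00347, adjusted p = 0.188, limma), at Acsm2, 2.64 ± 0.994 kb (SE, unadjusted p = 0.0321, adjusted p = 0.334, limma), and at Acad12, 2.04 ± 0.599 kb (SE, unadjusted p = 0.0109, adjusted p = 0.238, limma). Both ACSS2-/- controls lay above both WT controls at 22 of 46 members (37.4% of all genes), and the ACSS2-/- lists were longer (45014 and 37456 peaks against 32945 and 36485).

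In UUO kidneys, H3K9cr passed at 0 of 46 members (limma). At an unadjusted p under 0.05 it was lower in ACSS2-/- at 1, Echs1 (5.78% of all genes), with -0.724 ± 0.213 kb (SE, adjusted p = 0.497). Acsm1 had the largest difference, 1.41 ± 0.880 kb (SE, adjusted p = 0.870), followed by Pdk4, -1.01 ± 0.441 kb (SE, adjusted p = 0.757). Both ACSS2-/- UUO kidneys lay above both WT UUO kidneys at 6 of 46 members (8.03% of all genes): Acot1, Acot2, Acsl3, Acsm1, Decr2 and Hsd17b4.

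For H3K9ac in UUO kidneys, 0 of 45 members passed, and the smallest adjusted p was 0.792 (limma). At an unadjusted p under 0.05, 4 were higher in ACSS2-/-: Acot12, Acox2, Acsl1 and Acsm1 (5.20% of all genes). The 3 largest differences were 2.19 ± 0.364 kb (SE, unadjusted p = 0.00890, adjusted p = 0.792, limma) at Acsm1, 1.01 ± 0.271 kb (SE, unadjusted p = 0.0328, adjusted p = 0.792, limma) at Acsl1 and 0.948 ± 0.122 kb (SE, unadjusted p = 0.00426, adjusted p = 0.792, limma) at Acox2. H3K9ac at Acsl1 was 2.46 kb in the WT control, 3.08 kb in the ACSS2-/- control, 1.27 and 1.20 kb in WT UUO and 1.99 and 2.51 kb in ACSS2-/- UUO kidneys.
At Acot1, Acox2 and Acsm1, H3K9ac was present in both ACSS2-/- UUO kidneys and at 0 in both WT UUO kidneys, that is at 3 of 45 members (1.45% of all genes). The opposite pattern was found at 0 of 45 members (0.126% of all genes). Both ACSS2-/- UUO kidneys were above both WT UUO kidneys at 16 of 45 members (28.0% of all genes) and below at 2, Acaa1a and Acsl4 (2.55% of all genes). The summed H3K9ac cover of the 14 proximal tubule genes had means of 2.04 kb in WT UUO and 12.3 kb in ACSS2-/- UUO kidneys, and Slc34a1 had 0 and 0.297 kb in WT UUO against 2.91 and 2.99 kb in ACSS2-/- UUO. Other lists also had higher means in ACSS2-/- UUO. They went from 14.9 to 24.3 kb for leukocyte, 2.93 to 7.74 kb for stroma, 5.73 to 8.93 kb for endothelial and 3.66 to 6.12 kb for distal nephron genes. Podocyte genes were level (1.71 and 1.76 kb). The part of these cell markers in the differences at Acot1, Acox2 and Acsm1 was not tested. The lists held 15988 and 18580 peaks in WT UUO and 17271 and 24571 in ACSS2-/- UUO kidneys.

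Within WT mice, H3K9cr fell with UUO at 1 of 46 members, Acot1 (0.642% of all genes), and within ACSS2-/- mice at 13 (6.72% of all genes). At Acot1 the drop was 2.56 kb in WT and 2.56 kb in ACSS2-/- mice. The test of the difference between the genotypes' effects passed at 0 of 46 members, with the smallest adjusted p at 0.310 (limma). At an unadjusted p under 0.05 the effect was more negative in ACSS2-/- at 9 members, against 12.3% of all genes, and the largest differences of effects were at Ppargc1a (-2.73 ± 0.933 kb (SE, adjusted p = 0.321)), Acad12 (-2.59 ± 0.848 kb (SE, adjusted p = 0.310)) and Acsm2 (-2.41 ± 1.41 kb (SE, adjusted p = 0.515)). A different number of calls in WT and ACSS2-/- mice was thus not shown to be a difference between them.

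**Figure D4:**
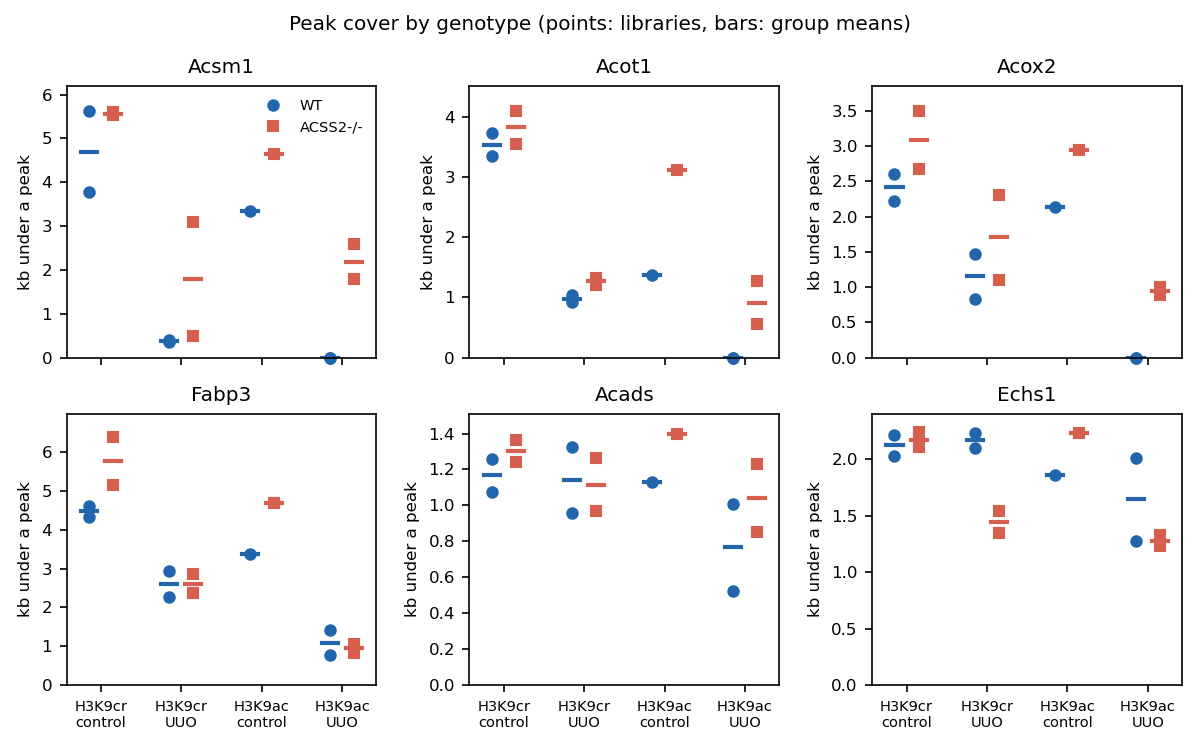
Cover in kb (vertical axis) of 6 members in each library, by mark and operation (horizontal axis), with WT as blue circles, ACSS2-/- as red squares and bars for group means. H3K9ac at Acsm1, Acot1 and Acox2 is at 0 in both WT UUO kidneys and above 0 in both ACSS2-/- UUO kidneys, and at Acads the libraries of both operations overlap for H3K9cr.

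Genes around the pathway were described with a list of 52, of which 51 were tested. H3K9cr fell with UUO at 20 of them, against 8.28% of all genes, and H3K9ac at 17, against 17.5%, and neither rose at any. Ppara, the nuclear receptor that drives fatty acid oxidation genes, had H3K9cr of 6.0 and 5.76 kb in WT controls, 5.97 and 5.53 kb in ACSS2-/- controls, 3.36 and 2.20 kb in WT UUO and 3.85 and 3.93 kb in ACSS2-/- UUO kidneys. It fell by 2.48 ± 0.333 kb (SE, adjusted p = 0.00738). H3K9ac at Ppara was 4.55 kb in the WT control, 7.18 kb in the ACSS2-/- control, 1.32 and 1.62 kb in WT UUO and 2.80 and 2.41 kb in ACSS2-/- UUO kidneys. The cover fell by 3.83 ± 0.226 kb (SE, adjusted p = 0.00679). Gcdh, the glutaryl-CoA dehydrogenase that also yields crotonyl-CoA, fell by 1.28 ± 0.261 kb (SE, adjusted p = 0.0260) for H3K9cr and fell by 1.31 ± 0.158 kb (SE, adjusted p = 0.0316) for H3K9ac.
The largest H3K9cr drops of this list were at Angptl4, an inhibitor of lipoprotein lipase, which fell by 4.25 ± 0.696 kb (SE, adjusted p = 0.0134), at Ppara, at Acot3, a peroxisomal thioesterase, which fell by 2.47 ± 0.202 kb (SE, adjusted p = 0.00292), at Rxra, the partner of Ppara, which fell by 1.90 ± 0.382 kb (SE, adjusted p = 0.0248), and at Amacr, the racemase of branched acyl-CoA, which fell by 1.83 ± 0.306 kb (SE, adjusted p = 0.0143). For H3K9ac, Esrra, an orphan nuclear receptor of mitochondrial genes, fell by 4.01 ± 0.520 kb (SE, adjusted p = 0.0355), and Crat, the carnitine acetyltransferase, fell by 2.95 ± 0.311 kb (SE, adjusted p = 0.0253). Acss2, a crotonyl-CoA and acetyl-CoA synthetase, did not pass for either mark, with differences of -0.428 ± 0.386 kb (SE, adjusted p = 0.522) for H3K9cr and -1.47 ± 0.316 kb (SE, adjusted p = 0.0701) for H3K9ac.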

How the data were processed

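ChIP-seq peak lists of 14 mouse kidney libraries were analysed. Per the labels, the authors aligned reads with Bowtie2 to mm10 and called peaks with MACS2, and ChIPseeker is also named. The methods name removal of organelle, low mapping quality and duplicate reads before peak calling, and the peak names of each list carry 1 library, so peaks were called per library. The deposited lists hold positions without height, score or read count, so depth is unknown. For 49943 RefSeq genes of GRCm38.p6, kilobases under a peak were summed within 3 kb of either gene end, overlapping windows being counted once. Group means were fitted with limma 3.58.1 (R 4.3.3, empirical Bayes with a trend) over all protein-coding genes with cover in at least 1 library of the fit, with Benjamini-Hochberg adjustment and a threshold of 0.05. Each H3K9ac control group has 1 library, so its spread is taken from the UUO groups. The script was tested on simulated data. Single values such as marker sums were compared by exact two-sided permutation.

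The members and lists were chosen with earlier results of these data known. Values in every library are given for members called in a comparison (within-genotype UUO comparisons included), for the 3 with the largest difference where none was called, for members with a peak in every library of 1 operation and none of the other, for Acads and Echs1 and for the pairs Acot1/Acot2 and Acaa1a/Acaa1b. Of the pathway list, Acss2, Gcdh, Ppara and up to 5 called genes per mark with the largest difference were named, and some listed genes are not reported here. In 4 lists the peak names carry another replicate number than the label, and the label was used. Same-numbered H3K9cr libraries had deviations from their group means that correlated between -0.105 and 0.160, and the H3K9ac UUO pair 0.163, so the label numbers were not taken to link libraries across groups. These correlations lie within a mark and cannot show whether both marks came from the same mouse. By the numbers in the peak names, same-numbered libraries of both marks within a group agreed in the presence of Y-linked peaks. No fit used those numbers. Input and RNA-seq libraries were not used here.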

Additional observations from a re-analysis of the deposited data

How the results depend on the processing

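The number of members lower with UUO for H3K9cr, 16 of 46, was 7 with windows of 1 kb (2.47% of all genes). It was 6 with an equal number of longest peaks per library (4.31%) and 7 with the longest 50% of peaks (4.8%). When 1 library was left out it was 5 to 11 (2.02% to 7.56%). For H3K9ac, 21 of 45 became 9, 13 and 10 with 1 kb windows, an equal number of longest peaks and log2(covered kb + 0.5), against 11.1%, 9.93% and 8.4% of all genes. When 1 UUO library was left out it was 4 to 24 (3.9% to 31.4%). Leaving out a control leaves 1 H3K9ac control library, and the medians for that are given above. With a replicate block the counts were 16 for H3K9cr (8.68% of all genes) and 4 for H3K9ac (3.76%), and H3K9cr above H3K9ac was called at 2 (2.49%). The H3K9ac difference turned to 0.579 kb at Acsm2, 0.107 kb at Acsm3, 0.209 kb at Eci2 and 0.00225 kb at Decr2 after centring on the library median. H3K9cr above H3K9ac, 3 members, was called at 5 with 1 kb windows (5.16% of all genes) and 9 over whole genes (8.3%). It was called at 1 with an equal number of longest peaks (1.71%). After centring, 5 were higher (7.78%) and 1 lower (8.29%). When a library was left out, 2 to 4 were higher (1.57% to 3.98%). The UUO effect on H3K9cr minus that on H3K9ac, 0 members, gave 1 lower over whole genes (0.463% of all genes). It gave 1 higher with 1 kb windows (3.51%), an equal number of longest peaks (5.61%), the longest 50% of peaks (5.75%) and all annotated genes (5.6%). When a library other than an H3K9ac control was left out, at most 2 members were higher (1.02% to 14.4% of all genes) and at most 1 was lower (0.0595% to 1.44%). ACSS2-/- against WT in control gave 1 higher with an equal number of longest peaks (0.286% of all genes). Without ACSS2-/- control replicate 2, which leaves 1 library in that group, the median difference was 0.4915 kb over the members and 0.3085 kb over all genes. The cause of these shifts was not tested. The other genotype comparisons gave 0 members in every setting run. The number of peaks as outcome could not be fitted, since many groups had no spread, and was not run. Operation and genotype as 2 terms was chosen after seeing the data. The lists give no read depth, so a missing peak is no measured absence of the mark.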

Other observations

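H3K9cr cover at Cd36, the fatty acid translocase, was present in 3 of the 4 H3K9cr libraries that had peaks at Y-linked genes (0.663, 2.07 and 0.781 kb) and in 0 of the 4 without them. This was noticed after the values were seen. The difference was 0.878 ± 0.312 kb (SE, limma, unadjusted p = 0.0282, adjusted p = 0.408). Of the 46 members 0 passed that comparison, as did 0 of 14801 genes. An unadjusted p under 0.05 was found at 6 members and at 1638 of the 14801 genes. With the presence of Y-linked peaks as a term, 22 members were called lower with UUO for H3K9cr (10.3% of all genes) and 14 for H3K9ac (17% of all genes).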
